A study of Mus musculus with 8 samples.

Results

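Triglyceride synthesis and glyceroneogenesis in brown adipose tissue (BAT) were followed through 10 genes, *Pck1*, *Aqp7*, *Gpam*, *Agpat2*, *Agpat3*, *Lpin1*, *Lpin2*, *Dgat1*, *Dgat2* and *Pnpla3*. They were chosen by name as enzymes and a channel of this pathway, and all 10 were found by gene symbol among the 49452 genes of the table. The table gives FPKM, the number of fragments scaled by transcript length (in kilobases) and by the mapped fragments of a library, for 8 RNA-Seq libraries of BAT from male C57BL/6 mice in 4 groups of 2. The study asked which transcripts track the activity of BAT under cold or a fat-rich diet. The first pair of groups was housed at 22 °C (replicates 4 and 7) or held at 4 °C for 24 h (replicates 2 and 11). The second pair was given NCD (normal chow by the labels, a matched control diet by the study's methods; replicates 6 and 8) or HFD (high-fat diet; replicates 2 and 6). No allele or transgene is given for any of these mice. The cold-exposed mice were young adults and were fasted at the end of the exposure. The methods leave unclear if fasting applied to the 22 °C group as well. The diet groups were older and had been fed for months. The labels list the libraries as separate samples, so p-values measure the spread between these samples, of which each group has only 2.

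An adipocyte makes triglyceride by joining fatty acids one after another to a glycerol backbone that enters as glycerol 3-phosphate. GPAT enzymes attach the first fatty acid and AGPAT enzymes the next, lipins then remove the phosphate, and DGAT enzymes attach the last fatty acid. The backbone can come from glucose, from recycled glycerol, or from pyruvate and lactate through phosphoenolpyruvate carboxykinase, a route called glyceroneogenesis. Brown adipocytes burn the fatty acids that their triglyceride stores release and refill those stores, so that breakdown and synthesis can run side by side.

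In the libraries of 1 group, values over autosomal genes correlated with a Pearson r of 0.968 at 22 °C, 0.974 at 4 °C, 0.972 in NCD and 0.982 in HFD. Brown adipocyte markers, none of the 10 at 0, summed to 1823 to 2622 FPKM at 22 °C, 7293 to 8611 at 4 °C, 3833 to 6225 in NCD and 3191 to 4516 in HFD. In the cold 6 of the 10 were higher and 2 lower in both libraries, and the median log2 difference was 0.26. Markers of all adipocytes summed to 5907 to 6626 FPKM at 22 °C and 10197 to 11538 at 4 °C (7 of 10 higher and 2 lower in both), and overlapped between the diets. All genes of the X and Y chromosomes carry a value of 0 in NCD replicate 6 and both 22 °C libraries, where at most 1 mitochondrial gene is above 0 against 15 in each other library. Because of this only autosomal genes were tested, and in the cold comparison this feature of the table cannot be told apart from the groups. The repeat-derived gene *Gm10800* exceeded 100 FPKM in a single library per group (22 °C replicate 4, 4 °C replicate 11, NCD replicate 8, HFD replicate 2), and these libraries are called satellite-high and the others satellite-low, the 2 library types. Skeletal muscle markers (11 of 12 found) summed to 142 to 597 FPKM at 22 °C, 2015 to 4405 at 4 °C, 618 to 1569 in NCD and 40.2 to 210 in HFD. Both 4 °C libraries exceeded both 22 °C libraries for 11 of the 11 markers, and both HFD libraries were below both NCD libraries for 10 of 11. Macrophage markers summed to 40.2 to 109 FPKM in NCD and 190 to 241 in HFD, with 7 of 7 higher in both HFD libraries. Endothelial markers summed to 118 and 119 FPKM at 22 °C and 144 and 195 at 4 °C (5 of 9 higher and 2 lower in both), and to 91.3 and 95.3 in NCD and 142 and 152 in HFD (5 of 9 higher). White adipocyte markers summed to 58.8 and 101 FPKM at 22 °C, 118 and 242 at 4 °C, 12.1 and 20.5 in NCD and 80.6 and 109 in HFD. Of the 4 tested in the cold 2 were higher and 1 lower in both libraries, and of the 4 tested in the diet comparison 3 were higher and 1 passed the threshold. The white markers *Hoxc9*, *Hoxc10*, *Tcf21* and *Wt1* were below 1 FPKM throughout. The part of these cells in the values below was not tested beyond a fit of all 8 libraries with a muscle score, the mean log2(FPKM + 1) of the 11 muscle markers. In a bulk tissue, fewer cells of a type and less RNA per cell cannot be told apart.

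The 10 genes ranged from one of the most abundant transcripts of the tissue to a low one. *Pck1*, the cytosolic phosphoenolpyruvate carboxykinase that commits carbon to glyceroneogenesis, averaged 1052 FPKM over the 8 libraries and ranked 11 among 20515 autosomal protein-coding genes. *Agpat2*, which makes phosphatidic acid and is mutated in an inherited lipodystrophy, followed with 457 FPKM (rank 64), and *Dgat2*, a DGAT of the endoplasmic reticulum and lipid droplet, with 369 (rank 88). *Agpat3*, *Dgat1*, *Gpam*, *Lpin1* and *Aqp7* lay between 138 and 55.5 FPKM. *Pnpla3* (12.5 FPKM, rank 2618) and *Lpin2* (3.72 FPKM, rank 6351) were the lowest. FPKM is a level per length, so these levels can be set side by side. Each value of a member rested on at least about 728 fragments, as estimated from the smallest step in the values and the longest transcript of the gene.

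**Figure D1:**
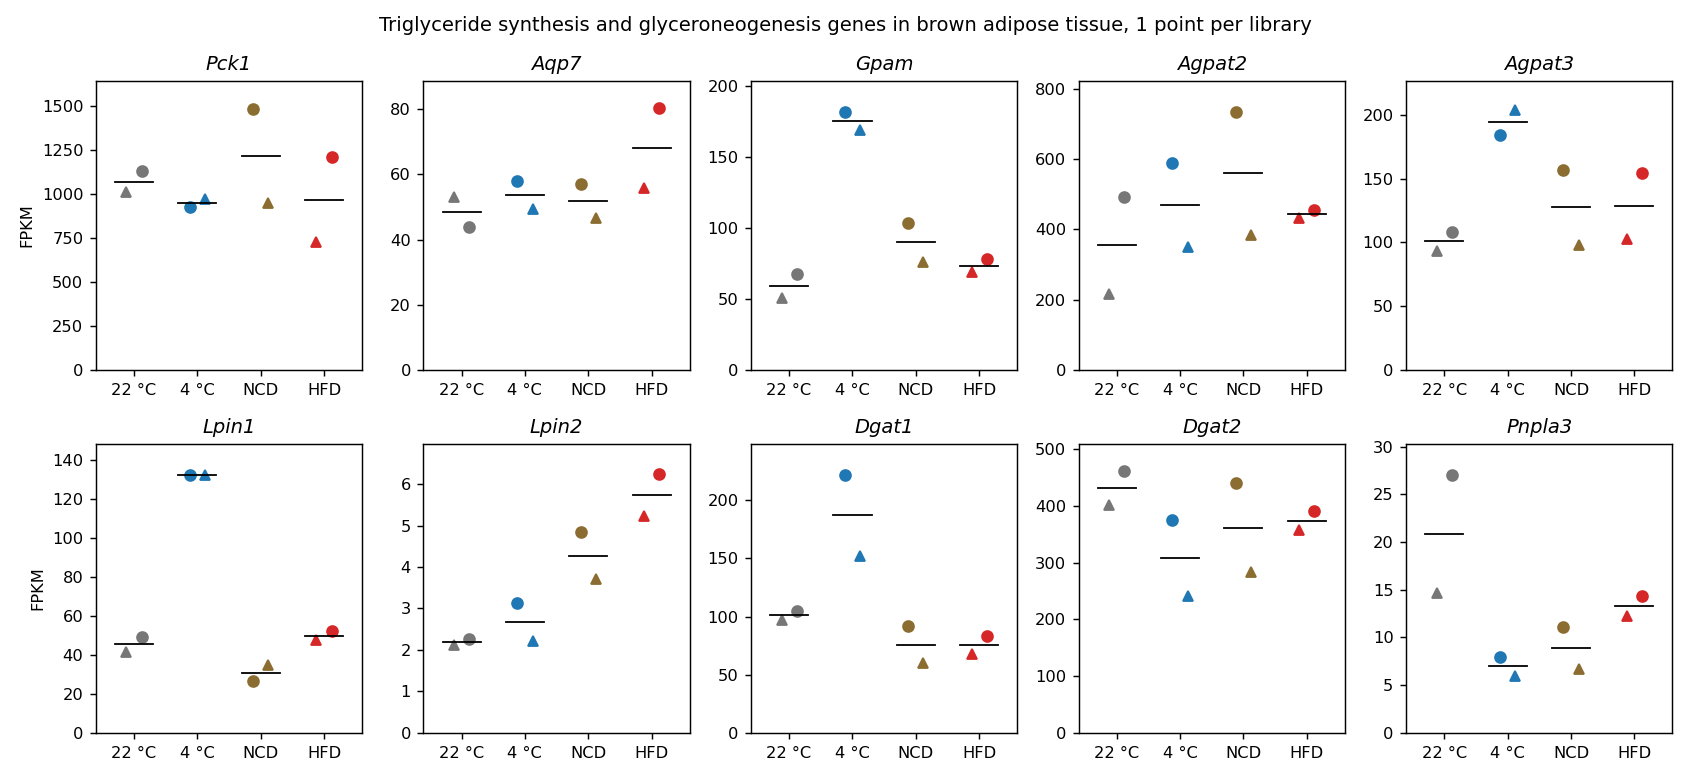
FPKM (vertical axes, linear and starting at 0) of the 10 genes in each library, with a panel per gene and the groups 22 °C, 4 °C, NCD and HFD along the horizontal axis. Triangles are satellite-high and circles satellite-low libraries, and the bar is the mean of the 2 libraries of a group. *Lpin1* and *Gpam* stand highest at 4 °C (132 and 132 FPKM, 182 and 169 FPKM), while the groups overlap for *Agpat2* in both comparisons.

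At these steps, and in most libraries, 1 enzyme held most of the FPKM of its family. *Pck1* held 99.4% to 99.9% of the summed FPKM of *Pck1* and the mitochondrial form *Pck2*, and *Lpin1* 82.9% to 95.8% of the 3 lipins. *Agpat2* held 57.8% to 79.5% of the 5 AGPAT genes counted, with *Agpat3* next at 16.9% to 33.7%. At the GPAT step *Gpam*, the mitochondrial GPAT, held 44.4% to 63.0% and *Gpat4*, an enzyme of the endoplasmic reticulum, 28.2% to 49.0%. *Gpat4* exceeded *Gpam* in 22 °C replicate 4 alone. These shares describe transcripts and not enzyme activity, and a share within a library does not change with the scaling of that library.

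**Figure D2:**
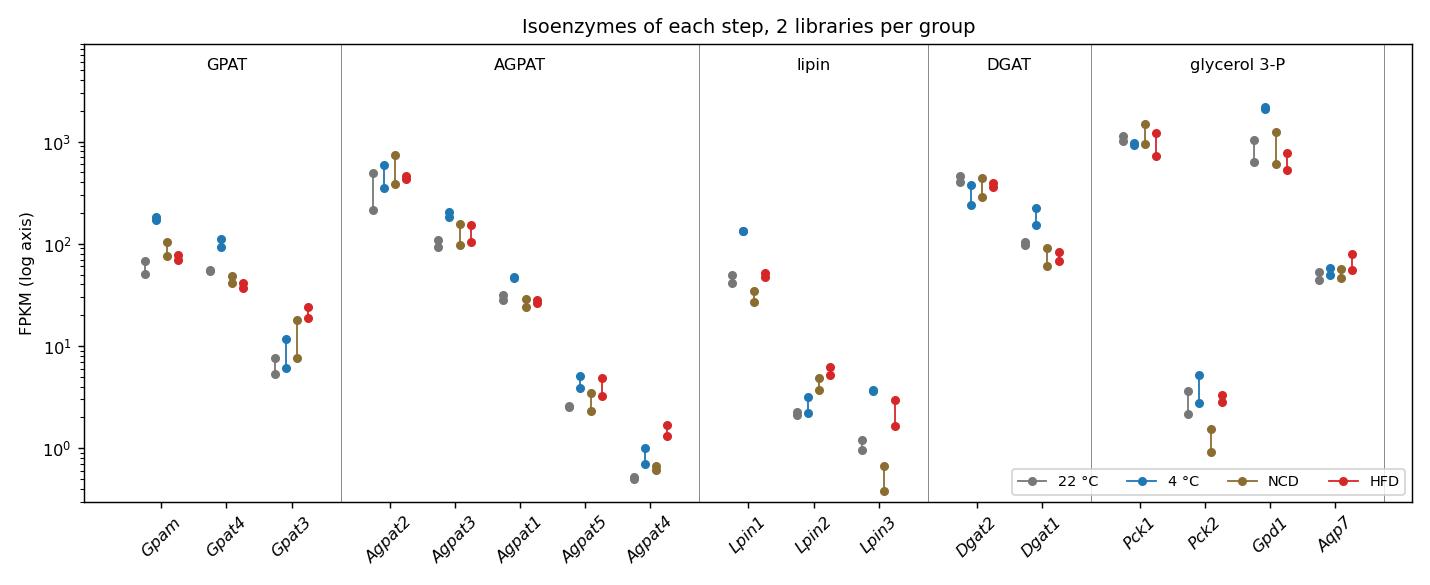
FPKM on a log axis for the isoenzymes of the GPAT, AGPAT, lipin and DGAT steps and for genes that supply glycerol 3-phosphate. Each vertical line joins the 2 libraries of a group, which are the points. *Pck1* is at 727 FPKM or more in every library and *Lpin2* between 2.13 and 6.25 FPKM, and at the DGAT step the 4 °C points of *Dgat1* approach those of *Dgat2*.

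Promoters are shown for *Pck1*, *Pnpla3* and *Gpam*, chosen after the search because they had a window within 26 bases of the gene's start in the table that held letters of the cAMP response element. *Pck1* is known to answer to cAMP, the second messenger of noradrenaline in brown fat. RefSeq windows of 300 bases (250 before to 50 after a start site, GRCm38.p6) were given for 8 of the 10 genes, in 12 windows, and none for *Dgat1* and *Dgat2*. The 250 bases before the start site are printed, and capitals mark each match to the cAMP response element (TGACGTCA), its half-site (TGACG, or CGTCA on the other strand) or the CCAAT box (CCAAT, or ATTGG on the other strand). The full element contains the half-site on each strand. For *Pck1* (chr2:173152823-173153072, plus strand), *Pnpla3* (chr15:84167566-84167815, plus strand) and *Gpam* (chr19:55099478-55099727, minus strand, the window nearest to the gene's start in the table) they read 5′ to 3′:
Pck1: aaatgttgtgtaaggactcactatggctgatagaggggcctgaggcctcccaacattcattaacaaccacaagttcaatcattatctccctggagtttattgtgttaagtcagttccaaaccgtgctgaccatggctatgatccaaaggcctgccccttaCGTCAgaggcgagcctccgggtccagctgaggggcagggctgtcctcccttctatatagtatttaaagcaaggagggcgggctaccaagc
Pnpla3: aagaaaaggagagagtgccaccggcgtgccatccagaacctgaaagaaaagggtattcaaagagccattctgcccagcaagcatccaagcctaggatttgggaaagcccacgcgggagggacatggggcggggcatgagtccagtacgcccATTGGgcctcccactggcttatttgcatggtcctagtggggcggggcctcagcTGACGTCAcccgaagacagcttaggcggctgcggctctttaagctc
Gpam: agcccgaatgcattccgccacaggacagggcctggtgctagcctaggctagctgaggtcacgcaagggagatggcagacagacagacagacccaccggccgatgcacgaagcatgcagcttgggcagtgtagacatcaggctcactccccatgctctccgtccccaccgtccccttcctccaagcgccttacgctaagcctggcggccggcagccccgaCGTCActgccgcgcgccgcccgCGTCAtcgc
*Pck1* had 1 half-site that begins 90 bases before the start, *Pnpla3* a full element at 46 bases and a CCAAT box at 99, and *Gpam* half-sites at 31 and 9 bases. Half-sites occurred in 4 of the 12 member windows (33.3%), against 20.8% of all 32851 windows. The fourth was a window of *Lpin2* whose start site lies 972 bases inside the gene. The full element occurred in 1 window (8.3%) against 1.79%. CCAAT boxes occurred in 3 windows (25.0%) against 37.4% of all, and the E-box CACGTG in 1 (8.3%), again of *Lpin2*, against 7.15%. The TATA box letters TATAAA, the palindrome TTGCGCAA and a pair of AGGNCA half-sites 1 base apart had no match in the 12 windows, and were in 13.6%, 0.183% and 0.381% of all windows. All motifs were searched on both strands. The windows of *Agpat2*, *Agpat3*, *Aqp7* and *Lpin1* held none of these letters. For *Lpin1* the start site lies 21196 bases outside the gene as the table gives it. A match of letters is a description of the sequence and not evidence of binding.

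The cold comparison asked which of these genes differ in BAT after 24 h at 4 °C. *Lpin1*, which encodes a phosphatidic acid phosphatase, rose about 2.90-fold and was the only member past the threshold. Differences of similar size in *Gpam* (upward) and *Pnpla3* (downward) did not pass. *Agpat3* (1.93-fold) and *Dgat1* (1.85-fold) were higher in both 4 °C libraries, also without passing, while *Pck1*, *Aqp7*, *Agpat2* and *Lpin2* differed little beside their spread. The threshold was an adjusted p under 0.05 in limma together with an absolute log2 fold change no smaller than 1, on the log2(FPKM + 1) scale and with Benjamini-Hochberg adjustment over all 17470 genes tested. It was passed by 1 of the 10 members, beside 1.44% of all genes tested.

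Among the genes that supply the backbone, *Pck1* (chromosome 2, 173153048 to 173159273) had 1011 and 1130 FPKM at 22 °C and 926 and 974 at 4 °C. Both cold libraries were lower, by a small margin. The log2 fold change was −0.17 (SE 0.33, adjusted p 0.793, limma), and it became positive (0.58) with the muscle score in the fit. *Aqp7*, the glycerol channel of adipocytes (chromosome 4, 41033074 to 41048139), had 53 and 43.8 FPKM at 22 °C and 58.1 and 49.5 at 4 °C. These ranges overlapped, and the difference of 0.15 on the log2 scale (SE 0.23, adjusted p 0.725, limma) turned to −0.11 after median centring, which sets the medians of the libraries equal.

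*Gpam* (ENSMUSG00000024978, chromosome 19, 55069734 to 55099451, minus strand), which attaches the first fatty acid, had 50.7 and 67.9 FPKM at 22 °C and 182 and 169 at 4 °C. The lower cold library was more than 2-fold above the higher 22 °C library. Means were 59.3 ± 12.2 and 176 ± 9.25 FPKM (SD, n = 2 each). On the log2 scale they differed by 1.57 (SE 0.26), with an adjusted p of 0.0529 in limma. *Gpam* passed with library type as a covariate (adjusted p 0.0257, limma) and after median centring (0.0253), with a range from 0.0137 to 0.22 over the alternatives. With 1 library left out the log2 difference ran from 1.36 to 1.77, and with the muscle score it was 1.99 (adjusted p 0.206, limma).

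At the AGPAT step, *Agpat3* (chromosome 10, 78269178 to 78352489) had 93.6 and 108 FPKM at 22 °C and 184 and 204 at 4 °C. Both cold libraries lay well above, at a log2 fold change of 0.94 (SE 0.25) and an adjusted p of 0.101 in limma. The fold change was 0.43 after quantile normalization and 0.51 after rescaling to the autosomal protein-coding sum, but 1.65 with the muscle score. *Agpat2* (chromosome 2, 26593057 to 26604417) had 588 and 350 FPKM at 4 °C, where the 22 °C libraries had 216 and 493. Its libraries of 1 group differed as much as the groups did, and the log2 fold change was 0.48 (SE 0.51, adjusted p 0.608, limma), or 1.22 with the muscle score. The end of *Agpat2* overlaps the last bases of *Egfl7* (to position 26593120) on the opposite strand (34.3 to 97.3 FPKM). *Agpat2* also lies within *Gm20532* on that strand, which had at most 0.068 FPKM. Whether the counting used the strand is not stated, so the value of *Agpat2* is uncertain by these overlaps, of which that with *Egfl7* is short.

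*Lpin1* (ENSMUSG00000020593, chromosome 12, 16535669 to 16589770, minus strand) had 41.7 and 49.2 FPKM at 22 °C and 132 in each of the 4 °C libraries. Both cold libraries were far above both others. Means were 45.5 ± 5.34 and 132 ± 0.284 FPKM (SD, n = 2 each), the log2 fold change was 1.52 (SE 0.23), and the adjusted p of 0.0495 (limma) was just under the threshold. The log2 difference was 1.64 within satellite-high and 1.41 within satellite-low libraries. With 1 library left out its log2 difference ran from 1.405 to 1.640. *Lpin1* lost its call without 22 °C replicate 4, without 4 °C replicate 11 and without 4 °C replicate 2, where nearly all genes did. It also failed after quantile normalization (log2 difference 0.99, adjusted p 0.094), where *Pnpla3* passed in its place (adjusted p 0.0434), and its adjusted p lay between 0.0143 and 0.24 over the alternatives, the latter with the muscle score (log2 difference 1.59). *Lpin2*, a second lipin (chromosome 17, 71182560 to 71249817), had 2.13 and 2.26 FPKM at 22 °C and 3.14 and 2.22 at 4 °C. The ranges overlapped and the log2 fold change was 0.19 (SE 0.20, adjusted p 0.591, limma), with the opposite sign (−0.07) after median centring.

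The 2 DGAT genes, which encode unrelated proteins with the same reaction, differed in opposite directions, neither past the threshold. *Dgat1* (chromosome 15, 76502015 to 76511951) had 97.1 and 105 FPKM at 22 °C and 222 and 152 at 4 °C. *Dgat2* (chromosome 7, 99153658 to 99182719) had 402 and 461 FPKM at 22 °C and 375 and 242 at 4 °C. Neither gene's groups overlapped, with both cold libraries higher for *Dgat1* and lower for *Dgat2*. The log2 fold changes were 0.86 (SE 0.29, adjusted p 0.157) and −0.51 (SE 0.34, adjusted p 0.405) in limma. Quantile normalization gave 0.33 and −1.02, rescaling to the autosomal protein-coding sum 0.42 and −0.95, and without 4 °C replicate 11 *Dgat2* differed by −0.20.

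*Pnpla3* (ENSMUSG00000041653, chromosome 15, 84167816 to 84189512, plus strand) encodes adiponutrin, a lipid droplet protein whose human form carries a variant linked to fatty liver. It had 14.7 and 27 FPKM at 22 °C and 7.98 and 5.99 at 4 °C. Both cold libraries lay below both others, although the 22 °C libraries themselves stood apart. Means were 20.9 ± 8.7 and 6.98 ± 1.4 FPKM (SD, n = 2 each). On the log2 scale they differed by −1.40 (SE 0.33), with an adjusted p of 0.0852 in limma. It passed with library type as a covariate (adjusted p 0.0282) and after median centring (0.0224), with a range from 0.0137 to 0.462 over the alternatives. The log2 difference was −1.82 without 22 °C replicate 4 and −0.99 without 22 °C replicate 7. With the muscle score in the fit it was −0.75 (adjusted p 0.462).

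**Figure D3:**
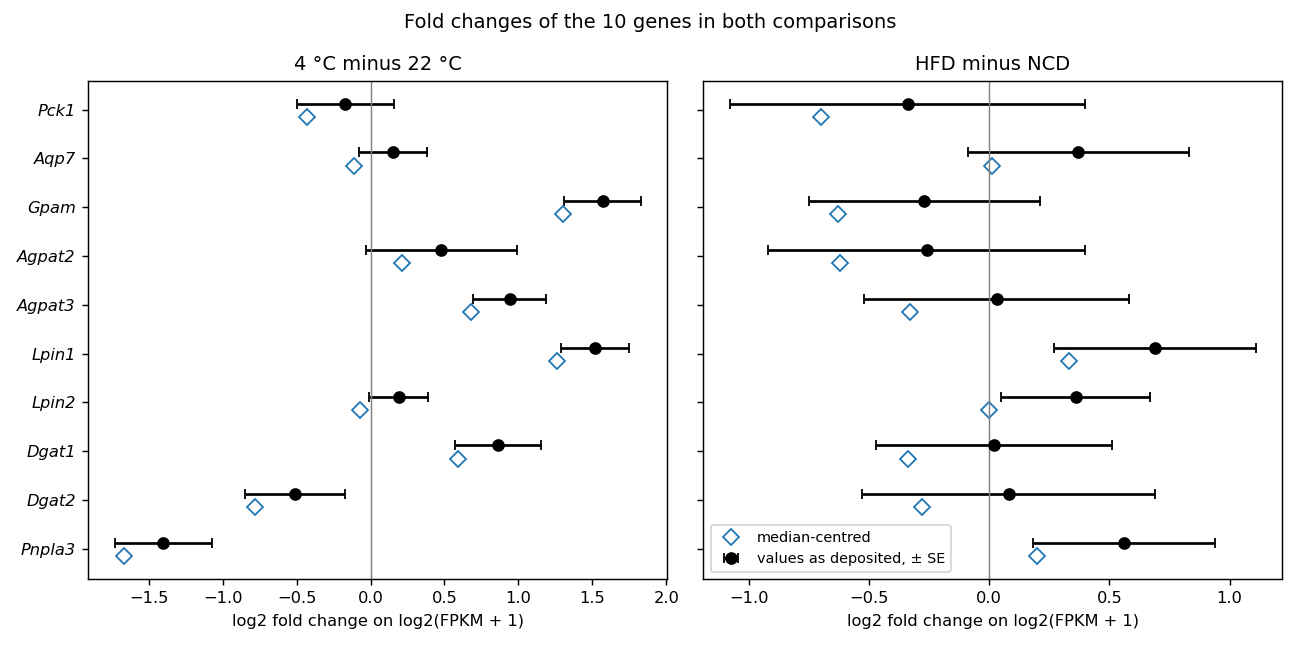
Log2 fold changes of the 10 genes on log2(FPKM + 1), for 4 °C minus 22 °C and HFD minus NCD, with bars of ± 1 SE from limma and open diamonds for median-centred values. In the cold *Gpam* (1.57) and *Lpin1* (1.52) lie at the upper end and *Pnpla3* (−1.40) at the lower, while in the diet comparison values run from −0.34 to 0.69.

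By direction alone, 4 of the 10 members (*Dgat1*, *Agpat3*, *Gpam* and *Lpin1*) were higher in both 4 °C libraries, as were 37.9% of all genes tested. Another 3 (*Dgat2*, *Pck1* and *Pnpla3*) were lower in both, against 20.6% of all, and 3 overlapped. The median log2 fold change of the members was 0.33, beside 0.07 over all genes tested. These counts were made on the deposited scale. After median centring, the signs of the fold changes went from 7 positive and 3 negative to 5 and 5. The median of protein-coding genes averaging 1 FPKM or more was 0.21 on the deposited scale and −0.06 after median centring. After centring the members' median was 0.07, beside −0.19 over all genes tested. With library type as a covariate 3 members passed (*Gpam*, *Lpin1* and *Pnpla3*), beside 4.92% of all genes tested, and with the muscle score none did, where 0 of all genes passed and 2619 had an unadjusted p under 0.05.

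**Figure D4:**
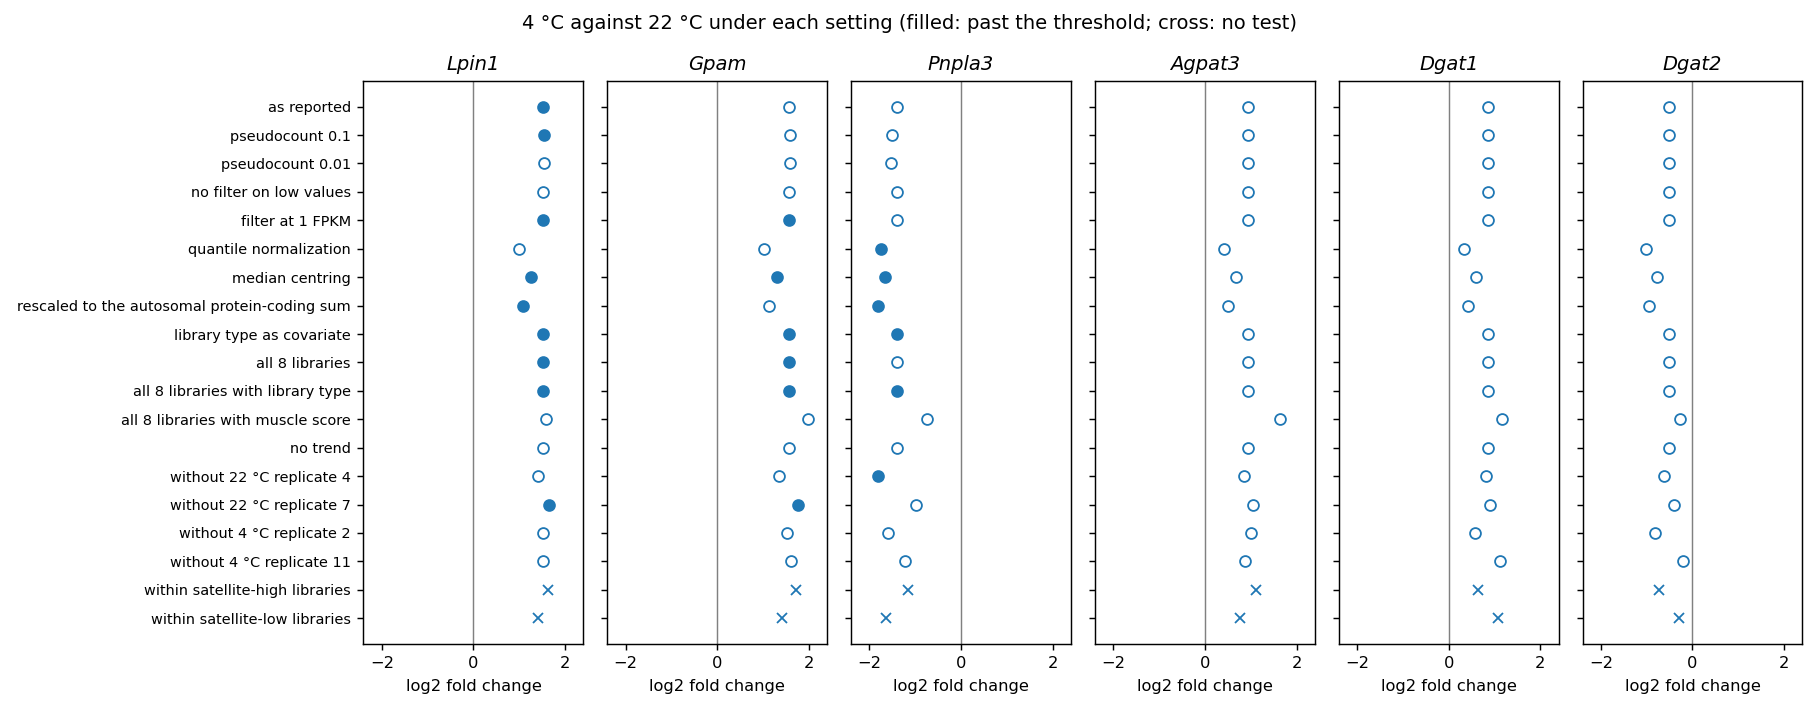
Log2 fold change for 4 °C against 22 °C (horizontal axes) of 6 genes under each processing setting (vertical axis), where filled points pass the threshold, open points do not and crosses are differences within a library type, with no test. The direction of all 6 genes is the same at every setting drawn, while the call of *Lpin1*, *Gpam* and *Pnpla3* comes and goes.

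Ratios between members in the same library do not depend on library scaling. The pairs were chosen after the values were seen, and 2 against 2 libraries allow no exact two-sided permutation p below 0.333, so they are given as a description. The ratio of *Dgat1* to *Dgat2* was 0.591 and 0.625 at 4 °C, compared with 0.242 and 0.227 at 22 °C. In NCD it was 0.208 and 0.212, and in HFD 0.19 and 0.213. The 4 °C libraries thus stood apart from the other 6, which lay close together. In terms of shares, *Dgat1* held 19.5% and 18.5% of the DGAT FPKM at 22 °C and 37.1% and 38.5% at 4 °C. The summed FPKM of both DGAT genes, by contrast, overlapped between 22 °C (499 and 566) and 4 °C (597 and 394).

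Other ratios also set the 4 °C libraries apart. *Gpam* to *Dgat2*, the first and last acyltransferases by these genes, was 0.126 and 0.147 at 22 °C and 0.486 and 0.698 at 4 °C. *Pck1* to *Gpam* was 19.9 and 16.6 at 22 °C and 5.08 and 5.75 at 4 °C. *Lpin1* to *Lpin2* was 19.5 and 21.8 in the 22 °C libraries, 42.1 and 59.5 in the 4 °C libraries and 5.5 to 9.35 in the 4 of the diet experiment. *Agpat3* to *Agpat2* overlapped in both comparisons, from 0.214 to 0.583 over the 8 libraries.

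**Figure D5:**
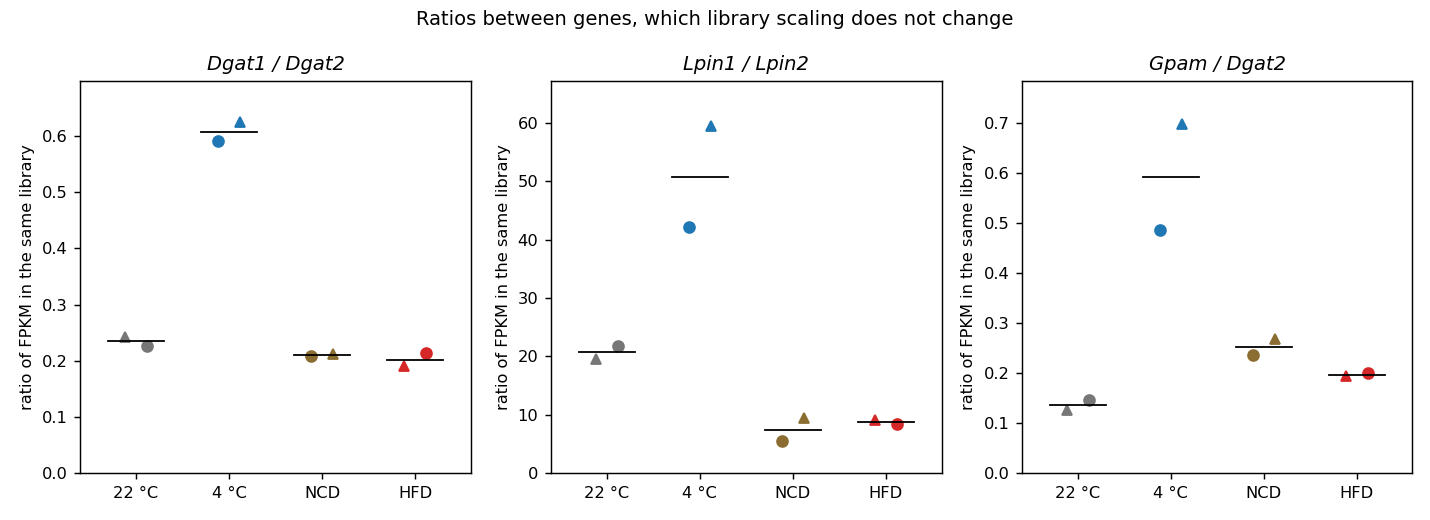
Ratios of FPKM within a library for *Dgat1* to *Dgat2*, *Lpin1* to *Lpin2* and *Gpam* to *Dgat2* (vertical axes, linear and starting at 0), with the 4 groups along the horizontal axis. Triangles are satellite-high and circles satellite-low libraries, bars are group means, and the 4 °C libraries are highest in each panel (0.591 and 0.625 for *Dgat1* to *Dgat2*).

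The diet comparison asked which of these genes differ in BAT after long HFD feeding. No member passed the threshold, beside 0.0684% of the 17535 genes tested in limma (12 genes). None of the 10 had an unadjusted p under 0.05 either, against 2531 of all genes, and the lowest was 0.142 for *Lpin1*. Adding library type as a covariate still left 0 members past the threshold, where 4.24% of all genes passed.

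*Lpin1*, *Lpin2* and *Pnpla3* were higher in both HFD libraries, that is 3 of 10, where 39.9% of all genes tested were. No member was lower in both, against 5.8% of all, and the other 7 overlapped. *Lpin1* had 26.7 and 34.6 FPKM in NCD and 47.4 and 52.3 in HFD. Both HFD libraries exceeded both NCD libraries, a log2 difference of 0.69 (SE 0.42, adjusted p 0.507, limma) that was 0.33 after median centring. *Lpin2* had 4.85 and 3.7 FPKM in NCD and 5.23 and 6.25 in HFD, a log2 difference of 0.36 (SE 0.31, adjusted p 0.646) that was −0.00 after median centring. *Pnpla3* had 11.1 and 6.7 FPKM in NCD and 12.2 and 14.3 in HFD, a log2 difference of 0.56 (SE 0.38, adjusted p 0.554) that was 0.20 after median centring and 0.23 to 0.88 with 1 library left out. Each of these 3 differences was larger than its SE, but none passed the threshold. With library type as a covariate the adjusted p was 0.0613 for *Lpin1*, 0.147 for *Lpin2* and 0.08 for *Pnpla3* (limma).

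For the remaining genes the spread between libraries of 1 diet was as large as any difference between diets. *Pck1* had 1483 and 952 FPKM in NCD and 727 and 1209 in HFD, a log2 difference of −0.34 (SE 0.74, adjusted p 0.869, limma). *Gpam* had 104 and 76.1 FPKM in NCD against 69.2 and 78.2 in HFD (log2 fold change −0.27, SE 0.48, adjusted p 0.837). *Agpat2* had 735 and 384 against 433 and 456 (−0.26, SE 0.66, adjusted p 0.891). In each of these, 1 NCD library stood above the rest. With the muscle score the log2 differences were −1.12 for *Pck1*, −0.72 for *Gpam* and −1.03 for *Agpat2*. Leaving out 1 library gave −0.50 to −0.048 for *Gpam*.

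*Aqp7* had 56.9 and 46.5 FPKM in NCD and 55.8 and 80.2 in HFD (log2 fold change 0.37, SE 0.46, adjusted p 0.757, limma), and differed by 0.12 without HFD replicate 6 and 0.63 without HFD replicate 2. *Dgat1* had 91.5 and 60.2 against 67.8 and 83.2 (0.02, SE 0.49, adjusted p 0.993), and *Dgat2* 440 and 284 against 357 and 391 (0.08, SE 0.61, adjusted p 0.967). *Agpat3* had 157 and 98 in NCD and 103 and 154 in HFD (0.03, SE 0.55, adjusted p 0.988). The satellite-low library (NCD replicate 6, which carries the X genes at 0, and HFD replicate 6) was the higher of its pair in both diets for every member but *Lpin1*. The members' median was 0.05, beside 0.18 over all genes tested. The median of protein-coding genes averaging 1 FPKM or more was 0.29 on the deposited scale and −0.07 after centring, where the members' median was −0.31, beside −0.18 over all genes tested. *Gpam* to *Dgat2*, a ratio that scaling does not touch, was 0.237 and 0.268 in NCD and 0.194 and 0.2 in HFD.

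Across the 4 groups, *Lpin1* spanned a 5.0-fold and *Pnpla3* a 4.5-fold range from the lowest to the highest library, the widest of the members, while *Aqp7* (1.8-fold), *Dgat2* (1.9-fold) and *Pck1* (2.0-fold) varied least. Group means of *Lpin1* ran from NCD (30.6 ± 5.58 FPKM) over 22 °C (45.5 ± 5.34) and HFD (49.8 ± 3.47) to 4 °C (132 ± 0.284; SD, n = 2 each), and only 22 °C and HFD overlapped as neighbours. For *Lpin2* the order was 22 °C, 4 °C, NCD and HFD (2.2 ± 0.0868, 2.68 ± 0.651, 4.28 ± 0.813 and 5.74 ± 0.725 FPKM; SD, n = 2 each), where 22 °C and 4 °C overlapped. The mice of the cold and diet experiments differed in age, so levels across the 2 experiments are set side by side without a test.

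Of 31 other genes of glycerolipid synthesis and glycerol 3-phosphate supply, 26 could be tested in each comparison. In the cold 2 passed, both upward, beside 1.44% of all genes tested. Both 4 °C libraries were higher for 17 and lower for 2 of the 26, where all genes gave 37.9% and 20.6%. The median log2 fold change was 0.55 beside 0.07 over all genes, and after median centring 0.28 beside −0.19. *Lpin3*, the third lipin, rose from 1.2 and 0.956 FPKM to 3.74 and 3.61 (log2 fold change 1.17, SE 0.17, adjusted p 0.0466, limma). *Plpp1*, a lipid phosphatase of the cell surface and other membranes, rose from 10.4 and 8.62 to 35.5 and 28.5 FPKM (1.65, SE 0.22, adjusted p 0.0442). Both cold libraries lay above both 22 °C libraries for each gene, but *Lpin3* was under the fold threshold after median centring (0.91). Both lost their call without 4 °C replicate 2 (adjusted p 0.121 each, limma), and *Lpin3* also without 4 °C replicate 11 (0.0559) or 22 °C replicate 7 (0.0688).

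The other genes with non-overlapping groups and a log2 fold change of at least 1 did not pass. *Fitm1*, a gene of lipid droplet formation best known from skeletal muscle, had 1.38 and 0.326 FPKM at 22 °C and 9.84 and 4.83 at 4 °C (2.16, SE 0.41, adjusted p 0.0621, limma). *Acsl5*, which activates fatty acids, had 21.9 and 71.5 against 103 and 199 FPKM (1.83, SE 0.62, adjusted p 0.161). *Gpd1*, which makes glycerol 3-phosphate from a glycolytic intermediate, had 638 and 1028 against 2098 and 2186 FPKM (1.40, SE 0.41, adjusted p 0.122). Each was higher in both cold libraries. With 1 library left out, which leaves a lone library in a group, their calls depended on the library. The log2 difference then ran from 1.71 to 2.61 for *Fitm1*, 0.99 to 2.66 for *Acsl5* and 1.06 to 1.75 for *Gpd1*. *Acsl5* differed by 3.13 within satellite-high and 0.52 within satellite-low libraries. With the muscle score in the fit the log2 differences were 3.23 for *Acsl5* and 2.43 for *Gpd1*. Neither passed (adjusted p 0.156 and 0.299, limma). The glycerol kinase gene *Gk* lies on the X chromosome and has no value above 0 in NCD replicate 6 or either 22 °C library, so its values of 279 and 180 FPKM at 4 °C have no counterpart.

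In the diet comparison none of the 26 passed in limma, and 8 had an unadjusted p under 0.05, as did 2531 of the 17535 genes tested. Both HFD libraries were higher for 8 and lower for 5, where all genes gave 39.9% and 5.8%. Their median of 0.19, beside 0.18 over all genes, was −0.17 after median centring, beside −0.18 over all genes. *Acsl5* had 86.8 and 54.5 FPKM in NCD and 13.4 and 16.7 in HFD, lower in both (log2 fold change −2.13, SE 0.44, adjusted p 0.151). *Fitm1* had 1.74 and 3.95 against 0.391 and 0.054 FPKM (−1.61, SE 0.31, adjusted p 0.141). *Lpin3* had 0.676 and 0.378 against 1.65 and 2.97 FPKM, higher in both (1.10, SE 0.26, adjusted p 0.163). With library type as a covariate these 3 passed, *Lpin3* upward and the other two downward. With 1 library left out, which leaves a lone library in a group, all 3 kept their direction while their calls depended on the library. The log2 difference then ran from 0.805 to 1.386 for *Lpin3*, −2.03 to −1.18 for *Fitm1* and −2.46 to −1.80 for *Acsl5*. None of the 3 passed without HFD replicate 6, and *Acsl5* did not without HFD replicate 2. With the muscle score the log2 difference was 0.73 for *Lpin3* (adjusted p 0.536, limma) and −3.60 for *Acsl5* (adjusted p 0.255), the latter larger in size than without it. With library type in all 8 libraries *Fitm1* had an adjusted p of 0.0633 and *Acsl5* of 0.0619. *Fitm1* had the direction of the skeletal muscle markers in both comparisons, and with the muscle score in the fit its log2 fold change was 1.02 in the cold (adjusted p 0.333, limma) and −0.41 in the diet comparison (adjusted p 0.791).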

How the data were processed

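BAT RNA was depleted of ribosomal RNA, made into directional libraries and sequenced as paired ends. Per the submitters' processing notes, tools included FastQC 0.10.1, TopHat2 2.0.10, STAR, Cufflinks 2.2.1, DESeq2 and R 3.2.2 on GRCm38.p5 with Ensembl genes. The study's methods give another Cufflinks version. The deposited table holds FPKM made by the authors, 1 value per gene and library, with no pooling. Of its genes, 49109 matched GENCODE M21, which supplied gene types. The authors' DESeq2 test needs counts and was not repeated.

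From the FPKM values, log2(FPKM + 1) was fitted with limma 3.58.1 in R 4.3.3 (eBayes with trend, two-sided), using the 4 libraries of a comparison and no covariate. Autosomal genes entered where 2 or more of the 4 libraries reached 0.1 FPKM. The added 1 understates changes of low genes. The test was checked on simulated data with changes larger than those of the members, so the check does not cover calls near the threshold. In single-exon genes, low values fell on whole multiples of 1 fragment (97.4% to 98.5% within 0.1), and 1 fragment on 2000 bases was worth 0.00437 to 0.00604 FPKM. Such estimates cover counting error only.

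All 10 members are named, with those of 31 pathway genes that passed or had non-overlapping groups and a log2 fold change of at least 1. For likeness, the 3 autosomal protein-coding genes with the highest Pearson r over the 8 libraries are named. Members and lists were chosen with earlier results of these data known. Alternatives changed the pseudocount, filter, scaling, covariates, trend and libraries. Tables and plots used Python 3.11.15, pandas 2.3.3, NumPy 2.4.6 and matplotlib 3.10.9.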

Additional observations from a re-analysis of the deposited data

How the results depend on the processing

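With 2 libraries per group, calls near the threshold depended on settings while most directions did not. Where 1 library is left out, the lone library of a group is assumed to vary like the other group. In the cold, members past the threshold (1 as reported) numbered 0 with a pseudocount of 0.01, with no filter, with the muscle score and without the trend. They numbered 2 with a filter at 1 FPKM, after rescaling to the autosomal protein-coding sum and with all 8 libraries in 1 fit. There were 3 after median centring and with library type as a covariate (in 4 or 8 libraries). All genes past the threshold, 252 as reported, numbered 529 (of 10937 tested) with that filter, 596 after rescaling and 439 with all 8 libraries. They numbered 750 after median centring, and 859 and 869 with library type in 4 and 8 libraries. With 1 library left out, the calls of members and pathway genes depended on the library, and such fits leave a lone library in a group. Pathway genes past the threshold in the cold (2 as reported) numbered 0 with a pseudocount of 0.01, no filter, the muscle score or no trend, and 1 after rescaling. In those settings with 0, all genes with an unadjusted p under 0.05 numbered 4249, 4689, 2619 and 4170. In the diet comparison members stayed at 0 in every setting run. Pathway genes (0 as reported) numbered 1 after median centring, 3 with library type and 1 with library type in 8 libraries. All genes past the threshold there numbered 31, 744 and 439. The name of NCD replicate 6 begins like those of the cold experiment and unlike the other diet libraries, and no member passed without it. Calls among all genes ran from 0 (no filter, muscle score, no trend) to 869 (all 8 libraries with library type) in the cold, beside 252 as reported, with 1 without 4 °C replicate 2. In the diet comparison they ran from 0 (no filter, no trend, quantile normalization or rescaling) to 744 (library type), beside 12. The share of higher calls in the cold was 84.5% without rescaling, 64.1% with median centring, 64.2% with quantile normalization and 50.3% with rescaling, and in the diet comparison it was 75.0% against 54.8% after median centring.

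Signs reversed for some small log2 fold changes. In the cold these were *Agpat2* (−0.056 after quantile normalization, from −0.12 to 1.07 with 1 library left out), *Lpin2* (−0.073 after median centring, −0.12 after rescaling), *Pck1* (0.58 with the muscle score) and *Aqp7* (−0.38, −0.11 and −0.28 after quantile normalization, centring and rescaling, and −0.10 within satellite-high libraries). In the diet comparison *Dgat1* had −0.12, −0.34 and −0.14 under those scalings, −0.30 with the muscle score and −0.14 within satellite-low libraries. *Agpat3* had −0.13, −0.33, −0.13, −0.71 and −0.023 in the same order. *Dgat2* had −0.28 after centring, −0.083 after rescaling, −0.17 with the muscle score and −0.17 within satellite-low libraries, *Agpat2* 0.17 within satellite-high libraries, *Lpin2* −0.001 after centring and *Pnpla3* −0.13 with the muscle score. With 1 library left out, the diet difference ran from −0.28 to 0.32 for *Dgat1*, −0.24 to 0.39 for *Dgat2*, −0.72 to 0.21 for *Agpat2*, −0.31 to 0.36 for *Agpat3* and −0.71 to 0.025 for *Pck1*. The cause of these changes was not tested. Of the other values for members, 150 in the cold and 156 in the diet comparison kept direction and side. No pairing by replicate number was possible because 22 °C and 4 °C share no number and NCD and HFD share only number 6. Libraries were matched across groups only by library type, in the fits with that covariate.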

Other observations

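Genes whose log2(FPKM + 1) was most like that of a member over the 8 libraries were sought among 9922 autosomal protein-coding genes that averaged 1 FPKM or more. The points share library scaling and library type, so the values are a description. For *Lpin1* they were *Dnajb12* (Pearson r 0.990), *Chuk* (0.983) and *Ptar1* (0.977). For *Gpam* they were the glycolytic aldolase gene *Aldoa* (0.986), the mitochondrial elongation factor gene *Tufm* (0.981) and *Cables1* (0.981). *Pnpla3* was closest to *Rfx5* (0.979), *Stat5a* (0.973) and *Gm12216* (0.970), and *Pck1* to *Rfxank* (0.966), *Fam132a* (0.952) and *Eci1* (0.948), a gene of fatty acid oxidation. *Dgat1* was closest to *Zscan25* (0.980), *Gsk3a* (0.979) and *Ppme1* (0.978), and *Dgat2* to *Styx* (0.989), *Copz2* (0.951) and *Abhd4* (0.950). *Agpat2* had the lowest values of the 10, with *Slc35g1* (0.954), *Cipc* (0.922) and *Btf3l4* (0.901), and *Agpat3* was closest to *Btbd1* (0.979), *Poldip2* (0.974) and *Fuom* (0.973). *Lpin2* was closest to *Dynlt1b* (0.989), *Pigu* (0.988) and *Sh3tc1* (0.977), and *Aqp7* to *Glipr2* (0.977), *Fam57a* (0.975) and *Lzic* (0.974). No gene was shared between these lists.

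Within the GPAT step, *Gpat3* held 15.0% and 16.7% of the FPKM in the HFD libraries, 10.5% and 6.2% in NCD, 6.6% and 4.2% at 22 °C and 3.8% and 2.3% at 4 °C. By share the HFD libraries were the highest of the 8 and the 4 °C libraries the lowest. In FPKM *Gpat3* had 11.7 and 6.1 at 4 °C, which overlapped its 7.58 and 5.31 at 22 °C. The summed FPKM of the step was 306 and 269 at 4 °C and 114 and 128 at 22 °C. The *Gpat3* share was picked after the values were seen and was not tested.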
